A study of Homo sapiens with 12 samples.

Results

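The genes described here are 9 of the 17518 genes in the deposited table of counts: ABCG1, ABCA1, APOE, MYLIP and LPCAT3, which are targets of the liver X receptors (LXR), the receptor genes NR1H2 and NR1H3, and the genes of their partner receptors, RXRA and RXRB. They were taken from the table by symbol. ABCG1 had been picked because it was much higher after NUDT21 knockdown in MUTZ-1 cells. Its values in MUTZ-1 are therefore a description without a test. The 8 other genes were named for their place in the pathway, with earlier results of these data known.

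The series holds RNA sequencing of 12 libraries from 2 human lines. Both MUTZ-1 and SKM-1 are labelled as marrow cells of a myelodysplastic syndrome, in which blood formation is clonal and faulty. In each line 3 libraries carried a control short hairpin RNA (genotype WT in the labels) and 3 an shRNA against NUDT21 (genotype shNUDT21). The product of NUDT21 is a subunit of the Im cleavage factor, which takes part in the choice of poly(A) sites. All cells were grown in medium with fetal bovine serum. Each knockdown is given in the labels under a single name, and the labels do not say whether cells were cloned or when they were harvested. Nothing in the labels says that the 3 libraries of a group came from separate cultures, so the p-values cover no more than the spread of these libraries, which may be technical.

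LXRα, the product of NR1H3, and LXRβ, the product of NR1H2, are nuclear receptors that bind oxysterols and desmosterol, and so sense a surplus of cholesterol. Paired with a retinoid X receptor (RXR) they bind DNA at direct repeats of a short half-site and switch on genes that send cholesterol out of the cell, chiefly ABCA1 and ABCG1. SREBP2 is the opposing arm, a factor that switches on cholesterol synthesis and uptake when sterols are scarce. LXR-driven export is best known in macrophages and also limits the growth of blood progenitors.

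Of the 9 genes, 8 had at least 1 promoter in the RefSeq table (GRCh38.p14), each covering 250 bases before to 50 after a transcript start. These were searched on both strands for the LXR element, which is AGGTCA, any 4 bases and AGGTCA again, with at most 2 mismatches in its 12 fixed letters. No other motif was searched. A match was found in 2.34% of the 35116 promoters in the table, and among these genes in ABCA1. It lay on the opposite strand, 69 to 54 bases before the start, had 2 mismatches and read AGGTTACTATCGGTCA in the direction of the motif. The promoter of MYLIP, which rose in both lines, had at least 4 mismatches at every position. The bases before the start of both genes are shown 5′ to 3′ in the direction of transcription, so that the ABCA1 match, in capitals, can be compared with a target gene that has no such letters in the window. They lie at chr9:104928156-104928405 (minus strand) and chr6:16128836-16129085 (plus strand).
ABCA1: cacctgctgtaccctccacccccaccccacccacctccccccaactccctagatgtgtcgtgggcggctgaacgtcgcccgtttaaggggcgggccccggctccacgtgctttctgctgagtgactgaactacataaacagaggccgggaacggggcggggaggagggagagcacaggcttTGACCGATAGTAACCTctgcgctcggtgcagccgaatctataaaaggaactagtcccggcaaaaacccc
MYLIP: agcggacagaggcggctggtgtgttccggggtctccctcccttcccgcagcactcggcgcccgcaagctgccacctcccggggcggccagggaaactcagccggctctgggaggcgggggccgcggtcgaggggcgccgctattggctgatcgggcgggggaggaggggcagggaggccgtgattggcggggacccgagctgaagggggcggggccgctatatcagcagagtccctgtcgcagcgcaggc
A match is a description of the letters and says nothing of whether a receptor was bound there. The absence of a match covers this window only.

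The libraries held 15843012 to 18426619 counts. NUDT21 was lower in each knockdown library than in each control library of its line. It stood at 301, 297 and 301 CPM (counts scaled to library size with TMM factors) in MUTZ-1 control and at 135, 136 and 142 CPM after knockdown, and at 322, 336 and 344 against 131, 132 and 129 CPM in SKM-1. The lines carried markers of different blood lineages. All 10 B-lineage markers were at 1 CPM or more in MUTZ-1, with a summed level of 2259 to 2268 CPM in control and 1971 to 2015 CPM in knockdown libraries, against 12.2 to 17.6 and 13.0 to 13.7 CPM in SKM-1. In SKM-1, 11 of 12 erythroid markers reached 1 CPM, with a summed level of 1256 to 1264 CPM in control and 4606 to 4822 CPM in knockdown libraries. In either MUTZ-1 group 3 of the 12 did, with a summed level of 743 to 764 CPM in control and 314 to 320 CPM in knockdown libraries. TFRC alone held 736 and 291 CPM of this in MUTZ-1 control and knockdown cells, and 424 and 1462 CPM of the sum in SKM-1. The sum by itself therefore does not set the lines apart. Of 11 monocyte and macrophage markers, 4 reached 1 CPM in either SKM-1 group, 3 in MUTZ-1 control and 0 in MUTZ-1 knockdown cells. Their sum was 2.94 to 5.21 CPM in MUTZ-1 control and 1.85 to 1.91 CPM in MUTZ-1 knockdown libraries. In SKM-1 it was 49.6 to 53.9 CPM in control and 126 to 136 CPM in knockdown libraries. CD163, of this list, had no count in any library. Of 5 progenitor markers, 1 reached 1 CPM in either MUTZ-1 group and 3 in either SKM-1 group. Their summed level was 102 to 106 CPM in MUTZ-1 control and 128 to 133 CPM in MUTZ-1 knockdown libraries. In SKM-1 it was 160 to 170 CPM in control and 481 to 484 CPM in knockdown libraries. CD34, of the same list, had 1 count in 1 MUTZ-1 control library and none in the other libraries. Whether each line is what its label says was not tested. In RNA from bulk cells, fewer cells of a type and less RNA per cell cannot be told apart.

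The first question was whether the other genes of the pathway moved with ABCG1 when NUDT21 was lowered in MUTZ-1. ABCG1 was close to 6 times its control level, and ABCA1, the other main exporter, rose 2.54-fold. MYLIP, NR1H3 and NR1H2 rose by smaller amounts, APOE rose at a level near 1 CPM, and neither RXR gene was called. A gene is said to have risen, fallen or been called at an adjusted p under 0.05, with edgeR (quasi-likelihood test, p-values adjusted by Benjamini and Hochberg over the 13625 genes tested). Of the 8 genes beside ABCG1, 5 rose, 1 fell and 2 were not called, where 24.4% of all genes tested rose, 24.6% fell and 49% were called in either direction. Since ABCG1 was picked from this comparison, nothing is read from those shares. The B-lineage markers moved unevenly, as 5 of 10 fell, 2 rose (CD22 and RAG2) and 3 were not called. Most of the fall of their sum was in MS4A1, from 187 ± 3.04 to 23.2 ± 0.782 CPM. Their part in these results was not tested.

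ABCG1 (chromosome 21, 42199689 to 42297244, plus strand, GRCh38.p14) encodes a transporter that passes cellular cholesterol to high-density lipoprotein. In MUTZ-1 the controls had 11.9, 10.7 and 11.5 CPM of it, and the knockdown libraries had 67.1, 68.0 and 66.3 CPM. The 3 knockdown libraries lay close together and far above the controls, at 5.90 times the control level (log2 fold change 2.56). In SKM-1 the gene was almost silent in both groups, with 1, 2 and 0 counts in the control libraries and 0, 0 and 2 counts after knockdown. Pooled over the 3 libraries these counts allow levels of 0.0115 to 0.163 CPM in control and 0.00496 to 0.148 CPM in knockdown cells (exact 95% Poisson intervals, counting error only). The order of the levels was MUTZ-1 knockdown, MUTZ-1 control and then both SKM-1 groups, which overlapped. At these counts a change of ABCG1 in SKM-1 was not detectable, so no test and no fold are given. The control libraries together held 593 counts in MUTZ-1 and 3 in SKM-1. With log2(FPKM + 1) in place of counts, the MUTZ-1 change was 1.80 on the log2 scale.

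**Figure D1:**
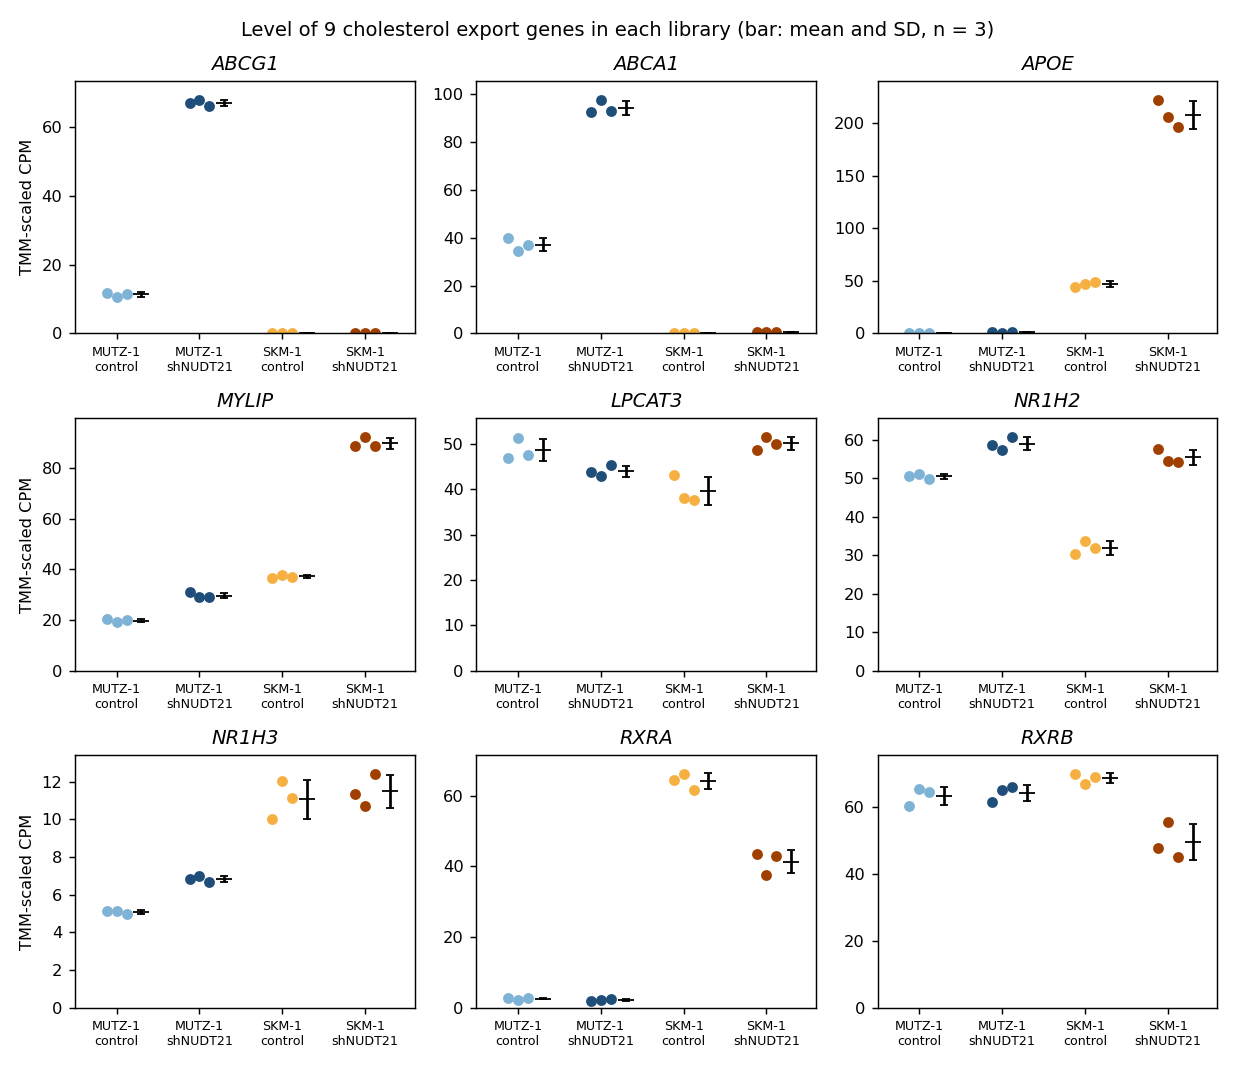
Level of each of the 9 genes in each library (points, TMM-scaled CPM, linear axes from 0) in the 4 groups, with the group mean and SD (n = 3) to the right of the points. ABCG1 and ABCA1 stay below 1 CPM in every SKM-1 library, and in MUTZ-1 knockdown libraries of ABCG1 sit at 66.3 to 68.0 CPM against 10.7 to 11.9 CPM in controls, while APOE and RXRA are mainly seen in SKM-1.

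ABCA1 (chromosome 9, 104781006 to 104928155, minus strand) encodes the transporter that loads cholesterol and phospholipid onto lipid-poor apolipoproteins. The MUTZ-1 controls had 40.0, 34.5 and 37.0 CPM, against 92.5, 97.7 and 92.9 CPM with the NUDT21 shRNA. The groups did not overlap, as for 53.6% of all genes tested in this line, and the log2 fold change was 1.34 ± 0.06 (SE; edgeR, adjusted p = 3.88e-58). In SKM-1 it was near the floor, with 1, 5 and 3 counts in control and 12, 9 and 11 counts in knockdown libraries. The SKM-1 groups did not overlap either, as for 84.6% of all genes there, and ABCA1 rose from 0.167 ± 0.108 to 0.658 ± 0.109 CPM (SD, n = 3; log2 fold change 1.92 ± 0.47 SE; edgeR, adjusted p = 9.05e-05). That call rests on 9 against 32 counts in all, and it was lost with log2(FPKM + 1) (limma, adjusted p = 0.308). The fitted difference of its changes between the lines was -0.58 (MUTZ-1 minus SKM-1; 95% interval -1.52 to 0.36). It is given with no test, because ABCA1 passed the filter on low counts through MUTZ-1 alone. On the FPKM scales this difference changed sign, to 1.077 with log2(FPKM + 1) and 0.96 with log2(FPKM + 0.1). In SKM-1 ABCA1 stood at 0.0132 FPKM in control and 0.0491 FPKM in knockdown cells. Both lie below the added 1 and 0.1, which pull its change there toward 0. The lost call and the changed sign therefore do not decide which line had the larger change.

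APOE (chromosome 19, 44905796 to 44909393, plus strand) encodes apolipoprotein E, a protein of lipoprotein particles that accepts exported cholesterol. It had the opposite pattern between the lines. In MUTZ-1 it was barely detected, with 6, 6 and 7 counts in control libraries and 21, 12 and 17 counts after knockdown. This was a rise from 0.365 ± 0.0287 to 1.00 ± 0.234 CPM (SD, n = 3; log2 fold change 1.45 ± 0.37 SE; edgeR, adjusted p = 0.000405). In SKM-1 it stood at 43.9, 46.8 and 49.4 CPM in control libraries and at 222, 206 and 196 CPM after knockdown. All 3 knockdown libraries were far above the controls, and APOE rose 4.45-fold (log2 fold change 2.15 ± 0.04 SE; edgeR, adjusted p = 3.91e-109). The difference between the lines was not called (-0.71; 95% interval -1.54 to 0.13; edgeR, adjusted p = 0.128), though it was with limma on log2(FPKM + 1), with -1.58 (adjusted p = 5.15e-09), and on log2(FPKM + 0.1), with -0.87 (adjusted p = 0.000350). In MUTZ-1 APOE stood at 0.263 and 0.748 FPKM in control and knockdown cells, below the added 1, which pulls its change there toward 0.

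MYLIP (chromosome 6, 16129086 to 16163887, plus strand) encodes a ubiquitin ligase, also named IDOL, that marks lipoprotein receptors for breakdown. In MUTZ-1 it rose from 20.2, 19.3 and 19.9 CPM to 30.9, 28.96 and 29.04 CPM (log2 fold change 0.58 ± 0.07 SE; edgeR, adjusted p = 9.47e-15). In SKM-1 it rose from 36.8, 38.0 and 37.2 CPM to 88.8, 92.4 and 88.6 CPM, 2.41-fold (1.27 ± 0.05 SE; edgeR, adjusted p = 7.20e-63). In both lines each knockdown library was above each control library. The rise was smaller in MUTZ-1 by 0.69 on the log2 scale (difference -0.69 ± 0.08 SE; edgeR, adjusted p = 1.50e-13).

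LPCAT3 (chromosome 12, 6976185 to 7018476, minus strand) encodes an enzyme that puts polyunsaturated fatty acids into phospholipids. It did not rise with the exporters in MUTZ-1. Its level was 46.8, 51.4 and 47.6 CPM in control and 43.9, 42.8 and 45.3 CPM in knockdown libraries, which did not overlap but lay close together (log2 fold change -0.14 ± 0.05 SE; edgeR, adjusted p = 0.0217). The fall was not called with library totals (adjusted p = 0.144), DESeq2 (0.114), a stricter filter (0.0598) or FPKM, and was lost without MUTZ-1 control replicate 2 (adjusted p = 0.312), knockdown replicate 1 (0.135) or knockdown replicate 2 (0.228). In SKM-1 it rose from 43.1, 38.0 and 37.6 CPM to 48.7, 51.6 and 50.01 CPM (0.34 ± 0.05 SE; edgeR, adjusted p = 4.87e-09). LPCAT3 shares 65.6% of its exon bases in GENCODE release 29 with EMG1, a ribosome assembly gene on the opposite strand, and reads of the pair cannot be told apart if the counting did not use strand. EMG1 moved the same way. In MUTZ-1 it fell from 98.7 ± 0.902 to 72.6 ± 3.09 CPM (SD, n = 3; edgeR, adjusted p = 2.00e-20), in SKM-1 it rose from 51.4 ± 1.66 to 66.0 ± 0.757 CPM (edgeR, adjusted p = 3.63e-13), and its part in the LPCAT3 values was not tested.

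The 2 LXR genes were both present in both lines. NR1H2 (chromosome 19, 50376457 to 50383388, plus strand), the gene of the widely expressed LXRβ, rose in MUTZ-1 from 50.7, 51.1 and 49.8 CPM to 58.7, 57.4 and 60.8 CPM (log2 fold change 0.22 ± 0.05 SE; edgeR, adjusted p = 5.86e-05). In SKM-1 it rose from 30.2, 33.8 and 31.8 CPM to 57.7, 54.5 and 54.1 CPM (0.79 ± 0.05 SE; edgeR, adjusted p = 3.12e-33). The control lines differed, but after knockdown they stood at 58.9 ± 1.70 and 55.4 ± 1.98 CPM (SD, n = 3). NR1H3 (chromosome 11, 47248300 to 47269033, plus strand), the gene of LXRα, which is prominent in liver and macrophages, was lower than NR1H2 in every group on the per-length scale of the deposited FPKM. It rose in MUTZ-1 from 5.15, 5.14 and 4.98 CPM to 6.86, 7.0 and 6.67 CPM (0.43 ± 0.14 SE; edgeR, adjusted p = 0.00730). In SKM-1 the groups overlapped, with 10.0, 12.05 and 11.1 CPM in control and 11.3, 10.7 and 12.4 CPM in knockdown libraries (0.05; 95% interval -0.18 to 0.28; edgeR, adjusted p = 0.677).

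The RXR genes did not follow the exporters. RXRA (chromosome 9, 134326455 to 134440585, plus strand) was low in MUTZ-1, with 2.66, 2.33 and 2.83 CPM in control and 1.82, 2.29 and 2.50 CPM in knockdown libraries. These groups overlapped (log2 fold change -0.25; 95% interval -0.61 to 0.12; edgeR, adjusted p = 0.279). In SKM-1 it fell from 64.4, 66.2 and 61.7 CPM to 43.4, 37.6 and 42.9 CPM (-0.64 ± 0.06 SE; edgeR, adjusted p = 2.25e-20). RXRB (chromosome 6, 33193588 to 33200853, minus strand) was the RXR gene with the higher level in MUTZ-1, at 60.3, 65.3 and 64.5 CPM in control and 61.6, 65.2 and 66.1 CPM in knockdown libraries. Those groups overlapped (0.02; 95% interval -0.07 to 0.11; edgeR, adjusted p = 0.774). In SKM-1 it fell from 69.8, 66.9 and 69.1 CPM to 47.8, 55.4 and 45.0 CPM (-0.47 ± 0.05 SE; edgeR, adjusted p = 1.76e-17). RXRB shares 6.22% of its exon bases with SLC39A7, a zinc transporter gene on the opposite strand, which went the other way in SKM-1, from 169.6 ± 1.44 to 245 ± 4.81 CPM. The third RXR gene, RXRG, had 39, 19 and 22 counts in the SKM-1 control libraries and at most 1 count in any other library.

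**Figure D2:**
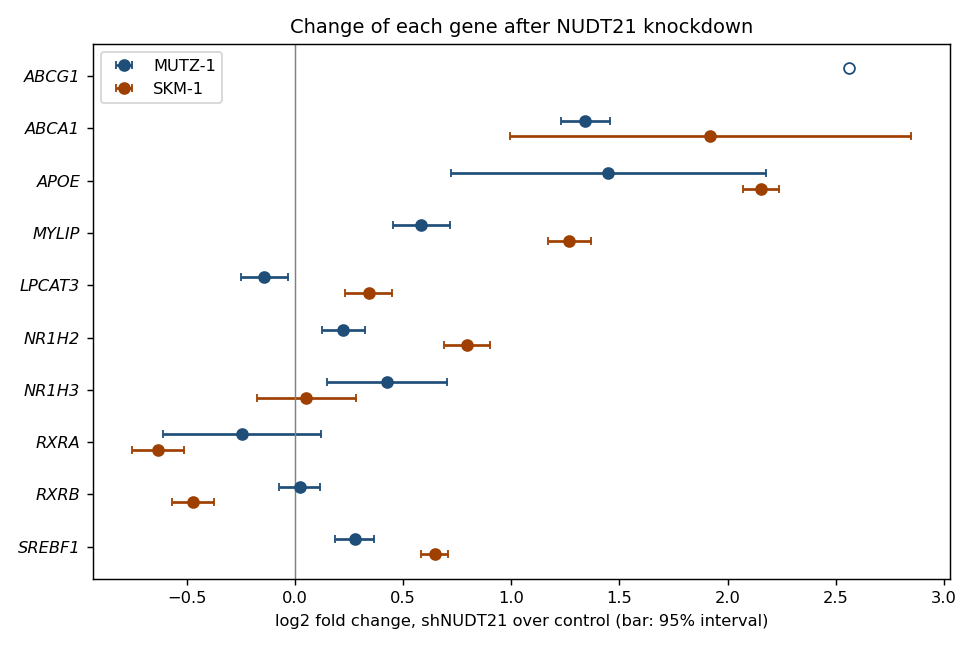
Log2 fold change of each gene, shNUDT21 over control, in MUTZ-1 (blue) and SKM-1 (brown), with 95% intervals from the fit of all 12 libraries. ABCG1 is an open point with no interval because it was picked for this value, and its SKM-1 value is left out because 3 and 2 counts give no fold; ABCA1, APOE, MYLIP, NR1H2 and SREBF1 lie to the right of 0 in both lines.

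In SKM-1, 5 of the 9 genes rose (ABCA1, APOE, MYLIP, LPCAT3 and NR1H2), 2 fell (RXRA and RXRB) and 2 were not called (NR1H3 and ABCG1), where 42.1% of all genes tested rose and 42.3% fell. ABCG1, with 3 and 2 counts there, had too few for a change to be detected. With 84.4% of genes called in that line, a call alone does not set these genes apart. The counts are therefore not read as a result about the pathway. All 12 erythroid markers rose in the same comparison, and the 4 monocyte and macrophage markers tested rose too. Over all 11 monocyte and macrophage markers the sum went from 49.6 to 53.9 CPM in control to 126 to 136 CPM in knockdown libraries. The part of these markers in the changes of APOE, MYLIP and the other genes was not tested. Gene medians per chromosome also moved in SKM-1, from -1.09 on chromosome 13 to 0.47 on chromosome 21 (log2), against -0.02 to 0.03 over all chromosomes in MUTZ-1. In SKM-1 the median was 0.20 over 226 genes within 5 Mb of APOE and 0.52 over 29 genes within 5 Mb of MYLIP. Around NR1H2 the median was 0.40 over 220 genes, around LPCAT3 -0.42 over 94 genes, and around RXRB 0.50 over 166 genes. It was -0.45 over 63 genes around SREBF1 and -0.96 over 50 genes around NUDT21 itself. An effect of the NUDT21 shRNA and a difference in chromosome content between the SKM-1 cultures cannot be told apart with these libraries.

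SREBF1, the gene of the lipogenic factor SREBP1 and the best known LXR target outside the 9, also rose in both lines. In MUTZ-1 it stood at 49.0, 47.8 and 48.1 CPM in control and at 58.1, 60.01 and 57.4 CPM in knockdown libraries (log2 fold change 0.28 ± 0.05 SE; edgeR, adjusted p = 3.26e-08). In SKM-1 it rose from 141 ± 5.02 to 219.7 ± 0.520 CPM (SD, n = 3; 0.64 ± 0.03 SE; edgeR, adjusted p = 7.38e-51). No library of a control group reached the level of a knockdown library of the same line. Counts per gene do not show which SREBF1 transcript rose.

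The change after knockdown differed between the lines for 4 of the 8 genes beside ABCG1. It was more positive in SKM-1 for NR1H2, MYLIP and LPCAT3 and more positive in MUTZ-1 for RXRB, where 35.6% and 36.4% of all genes tested were called in those directions and 72% in either. ABCA1, among the 8, is given with no test of this difference. For NR1H3 the difference was 0.37 ± 0.18 (SE; edgeR, adjusted p = 0.0583) and for RXRA 0.39 ± 0.20 (adjusted p = 0.0685). Both were called with library totals in place of TMM (adjusted p = 0.0100 and 0.0141), a setting under which the median over all genes shifted by 0.13. The stricter filter and both FPKM scales called them too. The NR1H3 difference was also called without MUTZ-1 control replicate 1 (adjusted p = 0.0402) or 2 (0.0433), MUTZ-1 knockdown replicate 1 (0.0443) or 2 (0.0487), SKM-1 control replicate 1 (0.0357) or SKM-1 knockdown replicate 3 (0.0381). That of RXRA was called without knockdown replicate 1 of MUTZ-1 (adjusted p = 0.0146) or of SKM-1 (0.0482).

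Between the control lines, ABCA1 held 1938 counts in MUTZ-1 and 9 in SKM-1, and it is given with no test because it passed the filter on low counts through MUTZ-1 alone. Of the other 7 genes beside ABCG1, 2 were higher in MUTZ-1 and 5 in SKM-1, where 41.4% and 48.8% of all genes tested were and 90.2% were called in either direction. NR1H2 was higher in MUTZ-1 by 0.66 ± 0.05 on the log2 scale (SE) and LPCAT3 by 0.30 ± 0.05. In the other direction, APOE differed by -6.97 ± 0.14, RXRA by -4.61 ± 0.10, NR1H3 by -1.12 ± 0.13 and MYLIP by -0.92 ± 0.06 (edgeR, all 6 adjusted p at most 2.38e-07). RXRB differed by -0.11 ± 0.05 (edgeR, adjusted p = 0.0165), which was lost without SKM-1 control replicate 1 (adjusted p = 0.0595). With library totals, the median over all genes shifted by -0.14 between the control lines. On the per-length scale of the deposited FPKM, LPCAT3, RXRB and NR1H2 led in MUTZ-1 control cells with 20.9 ± 1.03, 20.1 ± 0.824 and 20.1 ± 0.267, which lay within their spread, followed by MYLIP with 5.91 ± 0.143, ABCA1 with 2.67 ± 0.202, NR1H3 with 1.82 ± 0.0347 and ABCG1 with 0.952 ± 0.0522. After knockdown ABCG1 and ABCA1 reached 5.81 ± 0.0754 and 7.01 ± 0.219 FPKM (SD, n = 3). In SKM-1 control cells APOE led with 37.1 ± 2.11 FPKM, and after knockdown it reached 156 ± 9.89 FPKM.

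Further targets and regulators of the pathway were taken from 6 lists. For each, the median log2 change is given over members at a mean of 1 CPM or more in the line, where the median of all such genes was 0.003 in MUTZ-1 and 0.03 in SKM-1. The counts of each list are to be read against 24.4% of all genes tested that rose and 24.6% that fell in MUTZ-1, and 42.1% and 42.3% in SKM-1. Of 16 other LXR targets tested, 7 rose and 4 fell in MUTZ-1 (median 0.24), and 7 rose and 8 fell in SKM-1 (median 0.07), where 84.4% of all genes were called. SREBF1, described above, belongs to this list and is counted among the rises in both lines. APOC1 is counted among the rises in MUTZ-1 on 1 count in control and 13 in knockdown libraries. PNPLA3, counted among the SKM-1 falls, passed the filter on low counts through SKM-1 control cells alone. In MUTZ-1 SMPDL3A, a phosphodiesterase gene, rose from 3.38 ± 0.0290 to 5.52 ± 0.844 CPM and PLTP, the phospholipid transfer protein gene, from 6.82 ± 0.655 to 9.71 ± 0.529 CPM. The lipogenic genes of the same list were split there. SCD fell from 599 ± 8.18 to 377 ± 4.16 CPM, FASN from 518 ± 7.15 to 377 ± 2.67 CPM and ACACA by 0.29 on the log2 scale. FADS2 and ELOVL5 rose, by 0.41 and 0.10, and ELOVL6 and FADS1 were not called. FADS1 was at 0.730 CPM in control and 0.947 CPM in knockdown cells of MUTZ-1. FASN and ACACA went the other way in SKM-1, with rises of 0.48 and 0.38 on the log2 scale, while SCD fell there too (-0.40). In SKM-1 APOC1, an apolipoprotein gene in the APOE cluster, rose from 14.1 ± 0.488 to 49.2 ± 2.93 CPM and the desaturase gene FADS1 from 489 ± 14.7 to 839 ± 7.73 CPM. FADS2, also a desaturase gene, fell from 175 ± 2.83 to 49.7 ± 1.46 CPM and EEPD1 from 9.19 ± 0.103 to 4.12 ± 0.372 CPM. Among the genes named from the 6 lists, the highest adjusted p was 0.0221 in MUTZ-1 (ESRRA) and 7.71e-07 in SKM-1 (EBP).

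**Figure D3:**
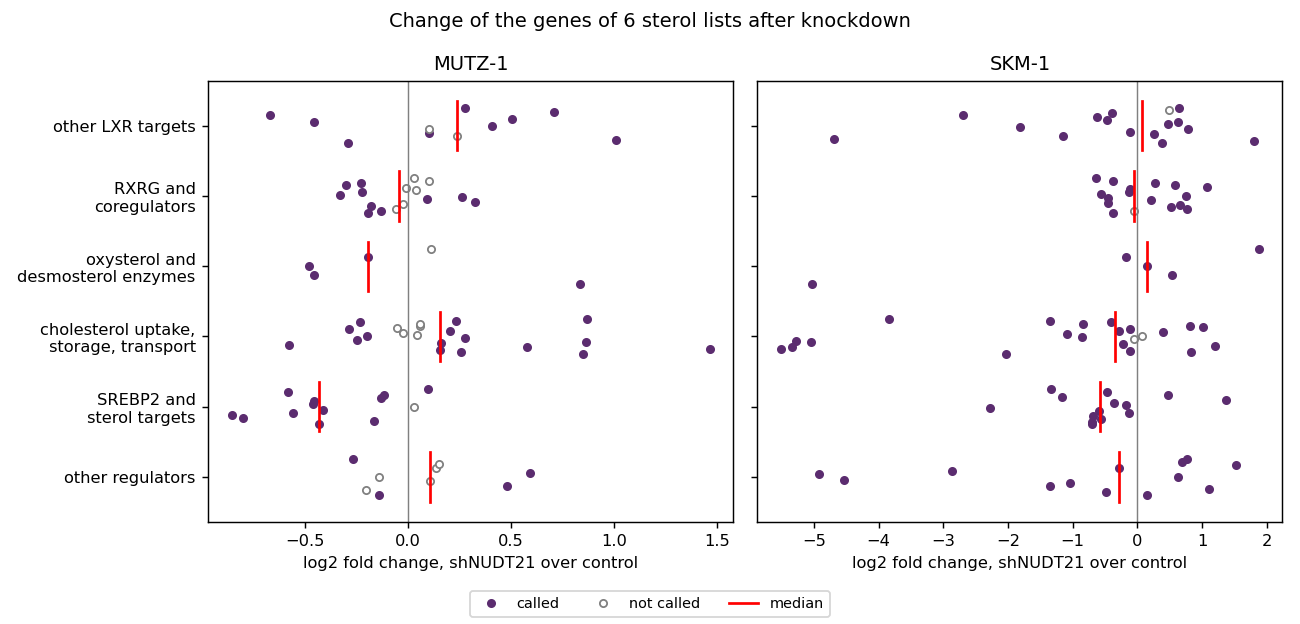
Log2 fold change after knockdown of the members of 6 lists with a mean of 1 CPM or more in MUTZ-1 (left) and SKM-1 (right; the axes differ), with called genes filled, other genes open and the list's median as a red line. The SREBP2 list has its median at -0.43 in MUTZ-1 and at -0.58 in SKM-1, and the other LXR targets spread to both sides of 0.

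Most genes of the opposing arm fell in both lines. Of 14 genes of SREBP2 and its sterol targets, 11 fell and 1 rose in MUTZ-1 (median -0.43), and 12 fell and 2 rose in SKM-1 (median -0.58), where 24.6% and 42.3% of all genes fell. HMGCS1, an enzyme gene of the mevalonate pathway, fell in MUTZ-1 from 232 ± 4.21 to 128 ± 5.52 CPM, while SREBF2 itself rose from 451 ± 7.07 to 484 ± 8.76 CPM. In SKM-1 SREBF2 fell from 526 ± 9.16 to 209 ± 2.74 CPM and INSIG2, a gene of an anchor that holds SREBPs back, from 42.6 ± 1.01 to 8.74 ± 0.512 CPM. SCAP, the SREBP escort gene, rose there from 136 ± 3.62 to 189 ± 5.71 CPM. Without MUTZ-1 control replicate 3, 2 genes of the list rose in MUTZ-1.

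Among 23 genes of cholesterol uptake, storage and transport, 11 rose and 6 fell in MUTZ-1 (median 0.15), and 5 rose and 15 fell in SKM-1 (median -0.35). Of all genes, 24.4% rose and 24.6% fell in MUTZ-1, and 42.1% rose and 42.3% fell in SKM-1. In MUTZ-1 GRAMD1C, of a family of sterol transfer proteins, rose from 4.65 ± 0.730 to 12.9 ± 0.620 CPM and the lipoprotein receptor gene VLDLR from 25.1 ± 0.633 to 45.9 ± 2.40 CPM. SCARB1, the high-density lipoprotein receptor gene, fell from 157 ± 4.67 to 129 ± 1.90 CPM. In SKM-1 GRAMD1C fell from 11.04 ± 1.14 to 0.265 ± 0.0873 CPM and its relative GRAMD1B from 62.7 ± 0.885 to 1.38 ± 0.319 CPM. SOAT1, which esterifies cholesterol for storage, rose from 32.4 ± 0.417 to 65.3 ± 1.83 CPM and LCAT, which esterifies it in lipoproteins, from 2.63 ± 0.709 to 6.09 ± 0.0730 CPM.

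Enzymes that make or break down LXR ligands were few. Of 8 tested, 2 rose and 3 fell in MUTZ-1 (median -0.19 over 5 genes), and 3 rose and 5 fell in SKM-1 (median 0.16 over 5 genes), where 49% and 84.4% of all genes were called. CYP7B1, CYP39A1 and SULT2B1, counted among the SKM-1 falls, passed the filter on low counts through SKM-1 control cells alone. Their falls are therefore not read as a result. At a mean of 1 CPM or more, 1 of 5 rose and 3 fell in MUTZ-1, and 3 of 5 rose and 2 fell in SKM-1. SULT2B1 is counted among the MUTZ-1 rises on 4 counts in control and 19 in knockdown libraries. CYP46A1, a cholesterol 24-hydroxylase, rose in MUTZ-1 from 9.05 ± 0.625 to 16.2 ± 0.667 CPM. DHCR7, an enzyme late in cholesterol synthesis, fell there from 90.5 ± 2.16 to 64.7 ± 3.40 CPM. In SKM-1 HSD3B7, an enzyme of bile acid synthesis, rose from 25.8 ± 2.00 to 94.7 ± 2.61 CPM, and EBP fell from 141 ± 4.03 to 125 ± 4.58 CPM. With the stricter filter, which tests fewer genes, 1 of the list rose in MUTZ-1 and 3 fell in SKM-1, and 1 rose in MUTZ-1 without knockdown replicate 1.

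Coregulators changed by small amounts in MUTZ-1. Of 18 genes of RXRG and LXR coregulators, 3 rose and 7 fell in MUTZ-1 (median -0.04), and 8 rose and 9 fell in SKM-1 (median -0.06), where 49% and 84.4% of all genes were called. RXRG, counted among the SKM-1 falls, passed the filter on low counts through SKM-1 control cells alone. At a mean of 1 CPM or more, 8 of 17 rose and 8 fell in SKM-1. The coactivator genes NCOA1 and NCOA3 rose in MUTZ-1 from 53.3 ± 0.642 to 66.8 ± 0.885 CPM and from 334 ± 8.06 to 401 ± 6.40 CPM, and NCOA5 and PPARGC1B fell from 95.3 ± 0.583 to 75.8 ± 2.65 CPM and from 73.0 ± 3.04 to 59.2 ± 2.19 CPM. With library totals, or without MUTZ-1 control replicate 1, 6 of the list rose. In SKM-1 NRIP1, a corepressor gene, rose from 41.1 ± 1.54 to 86.3 ± 5.18 CPM and GPS2 from 28.2 ± 2.30 to 48.1 ± 0.891 CPM, while TBL1XR1 and NCOA6 fell from 212 ± 5.16 to 136 ± 6.58 CPM and from 123 ± 4.40 to 82.7 ± 1.38 CPM.

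Other factors that act on transporter genes were also counted. Of 13 tested, 2 rose and 2 fell there (median 0.11), and 6 rose and 7 fell in SKM-1 (median -0.28), where 49% and 84.4% of all genes were called. In MUTZ-1 RARG and PPARA, genes of a retinoic acid receptor and a fatty acid receptor, rose from 7.75 ± 0.170 to 11.7 ± 1.16 CPM and from 6.87 ± 0.222 to 9.59 ± 0.846 CPM. ZNF202, a zinc finger repressor of ABCA1 and ABCG1, fell from 34.2 ± 1.21 to 28.5 ± 1.73 CPM and ESRRA from 49.8 ± 2.66 to 45.2 ± 1.18 CPM. With library totals or log2(FPKM + 1), 4 rose and 1 fell, and 1 fell without MUTZ-1 control replicate 1 or 3 or knockdown replicate 1 or 2. In SKM-1 the thyroid hormone receptor gene THRB rose from 12.1 ± 0.541 to 34.8 ± 1.45 CPM and NR2F2 from 41.6 ± 3.53 to 89.5 ± 3.68 CPM. RARB and PPARG fell from 26.9 ± 0.193 to 0.885 ± 0.327 CPM and from 9.70 ± 1.07 to 0.409 ± 0.0603 CPM. PPARG passed the filter on low counts through SKM-1 control cells alone, so its fall is not read as a result.

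The chromosomal surroundings of ABCG1 were described because the gene stood out in MUTZ-1. The nearest tested gene after it, UBASH3A, which encodes a suppressor of lymphocyte receptor signalling, begins 106.7 kb further on. It rose in MUTZ-1 from 0.226, 0.418 and 0.453 CPM to 8.44, 6.49 and 7.80 CPM (log2 fold change 4.35 ± 0.28 SE; edgeR, adjusted p = 1.94e-34), and stood at 1.05 ± 0.286 and 1.30 ± 0.352 CPM in SKM-1 (adjusted p = 0.347). The next gene on that side, RSPH1, went from 0.636 ± 0.122 to 1.21 ± 0.110 CPM in MUTZ-1. It is given with no test because it lay near the floor. SLC37A1, further on, rose in MUTZ-1 by 0.50 ± 0.08 on the log2 scale (edgeR, adjusted p = 8.22e-09). On the near side before ABCG1, UMODL1 was not called (0.13 ± 0.18; adjusted p = 0.592), and ZBTB21 and C2CD2 rose by 0.31 ± 0.06 and 0.37 ± 0.08 (adjusted p = 6.19e-07 and 2.73e-05). Of the 16 tested genes within 1 Mb besides ABCG1, 6 rose and 4 fell, with a median log2 change of 0.05, where 24.4% of all genes rose and 24.6% fell. The 6 include RSPH1. The interferon-induced genes MX1 and MX2, at the far end of that window, fell by 5.28 and 1.64.

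**Figure D4:**
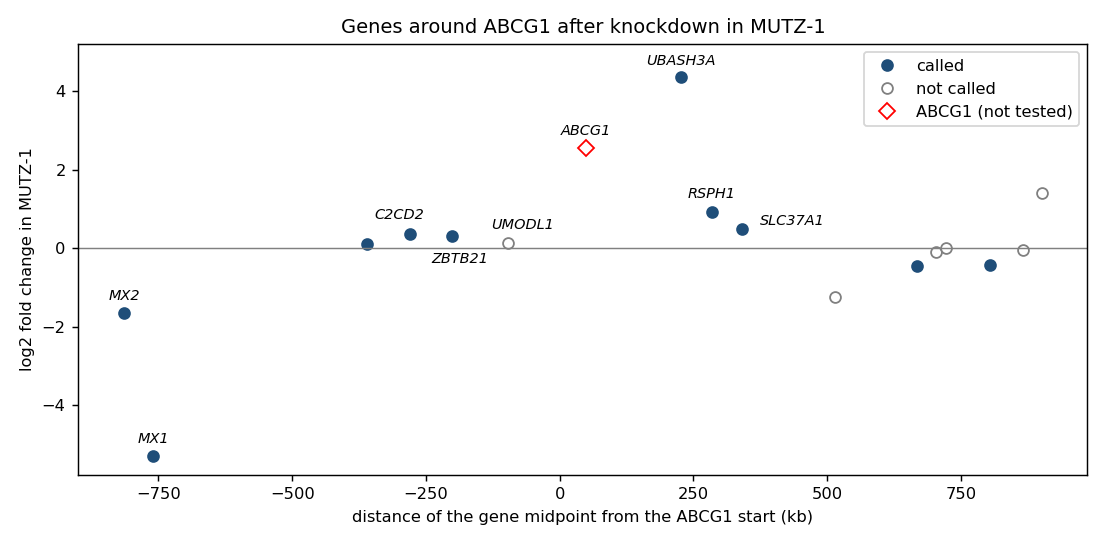
Log2 fold change in MUTZ-1 of the tested genes within 1 Mb of the ABCG1 start, by the distance of each gene's midpoint from that start in kb, with called genes filled and other genes open. UBASH3A and ABCG1 stand above the other genes of the window at 4.35 and 2.56, and MX1 lies lowest at -5.28.

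Over the 12 libraries, the genes whose log2 CPM was most like that of ABCG1, among 10893 with a mean of at least 5 CPM, were DYNC1H1, FGD6, FRYL, POU2F1 and NUMA1 (Pearson r = 0.993 to 0.997). Each was higher in MUTZ-1 than in SKM-1 and higher in MUTZ-1 knockdown than control cells, FGD6 at 77.5 and 128 CPM in MUTZ-1 control and knockdown and at 25.6 and 26.3 CPM in SKM-1. Among the other 8 genes r was highest for ABCA1, at 0.98, and lowest for RXRA, at -0.97. These values are descriptions of 12 points that share 4 groups, and most of their spread is the gap between the lines.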

How the data were processed

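Expression was measured by RNA sequencing (TruSeq Stranded mRNA libraries from TRIzol RNA, per the labels' protocols). The authors deposited whole-number counts of reads per gene, made with fastp, HISAT2, HTSeq and build GRCh38 per the submitters' processing notes. The notes give no versions. Annotation, strand setting and how multiply matching reads were counted are likewise not given in sources used here. The authors' deposited FPKM values served for levels between genes and for 2 alternatives. Samples were grouped by their titles.

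All 9 genes passed filterByExpr (13625 genes kept), ABCG1 and ABCA1 through MUTZ-1 alone. Counts were fitted with edgeR 4.0.16 in R 4.3.3 (TMM scaling, robust quasi-likelihood test, all 12 libraries, a mean per group, 8 residual degrees of freedom) and p-values adjusted over all genes. The code was tested on simulated data. CPM are mean ± SD over 3 libraries, and fold changes carry their SE. Replicates differed by more than sampling noise (chi-square per degree of freedom 1.66 to 2.25). Alternatives used limma 3.58.1, DESeq2 1.42.0, library totals, other filters, fewer groups, the replicate number as a block, and each library left out.

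The 9 genes and the lists were chosen with earlier results of these data known. Beside the 9 genes, NUDT21 and SREBF1, named genes are, per list, line and direction, up to 2 called genes with the largest change at 5 CPM or more in a group, the 5 genes most like ABCG1, and its 3 nearest tested genes on each side. Some genes that this rule names are not reported here. RXRG, ACACA, ELOVL5, ELOVL6, PNPLA3, CYP7B1, CYP39A1, SULT2B1, MS4A1, CD22, RAG2, MX1, MX2, EMG1, SLC39A7, TFRC, CD34 and CD163 were named after their values were seen. Positions and promoters are from RefSeq (GRCh38.p14), which placed 13419 of the tested genes, and strands and exon overlaps from GENCODE release 29.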

Additional observations from a re-analysis of the deposited data

Results flagged for a closer look

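For 4 of the 8 genes beside ABCG1, the change after knockdown differed between the lines by edgeR's test of the difference (log2, MUTZ-1 minus SKM-1). ABCA1, among the 8, is given with no test of this difference. NR1H2 differed by -0.57 ± 0.07 (SE; adjusted p = 1.40e-12), as it rose in both lines and more in SKM-1. MYLIP differed by -0.69 ± 0.08 (adjusted p = 1.50e-13), also with a rise in both lines. LPCAT3 differed by -0.48 ± 0.08 (adjusted p = 5.36e-09), and RXRB by 0.49 ± 0.07 (adjusted p = 4.45e-11), with a fall in SKM-1. SREBF1 differed by -0.37 ± 0.06 (adjusted p = 5.09e-10) and NUDT21 itself by 0.23 ± 0.04 (adjusted p = 5.36e-08), with 46.1% of its control level left in MUTZ-1 and 39.2% in SKM-1. The median log2 change over 50 genes within 5 Mb of NUDT21 was 0.04 in MUTZ-1 and -0.96 in SKM-1. How much of the NUDT21 fall in SKM-1 is shared with its surroundings was not tested.

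The lists held genes whose change differed between the lines at shares to be read against 72% of all genes tested. These were 11 of 16 other LXR targets, 15 of 18 coregulators, 6 of 8 ligand enzymes, 22 of 23 genes of uptake, storage and transport, 12 of 14 genes of SREBP2 and its targets, and 10 of 13 other regulators.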

How the results depend on the processing

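The counts of all genes called stayed within 1.5 times their value in each alternative. The number of genes beside ABCG1 that fell in MUTZ-1 was 1 (LPCAT3) and became 0 with library totals, DESeq2, the stricter filter and both FPKM scales, and 0 to 1 with a library left out. The number with a more positive change in MUTZ-1 was 1 and became 3 with library totals and the stricter filter. It was 4 with both FPKM scales, where ABCA1 is counted too, and 1 to 3 with a library left out. The difference of ABCA1, given with no test, turned from -0.58 to 1.077 and 0.96 with pseudocounts of 1 and 0.1 on FPKM. Its SKM-1 levels, 0.0132 and 0.0491 FPKM, lie below both pseudocounts, which pull its change there toward 0, so these scales do not decide the difference. Changes that were not called also turned sign. That of NR1H3 in SKM-1 became -0.0288 with library totals, -0.0212 and -0.0253 on the FPKM scales, and -0.0153 to 0.119 with a library left out. That of RXRB in MUTZ-1 ranged from -0.000531 to 0.0791 with a library left out. The fitted value of ABCG1 in SKM-1, which rests on 3 and 2 counts and gives no fold, ranged from -3.11 to 0.43. No change that was called turned sign in the alternatives run. Same-numbered libraries of 2 groups did not deviate together (r from -0.07 to 0.02), and differently numbered ones gave r from -0.062 to 0.095. With 3 libraries a group, this check cannot settle whether the numbers pair libraries. With the replicate block, 6612 genes were called in MUTZ-1 against 6680 without it, 11461 against 11500 in SKM-1, 9740 against 9806 for the difference and 12243 against 12283 between the control lines. The share of rises among the calls in MUTZ-1 was 49.8% with TMM and 60.7% with library totals, and it was 61.1% and 61.2% on the FPKM scales with pseudocounts of 1 and 0.1. Depth limits ABCG1 and ABCA1 in SKM-1 and APOE in MUTZ-1, with at most 50 counts in a group.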
